A study of Mus musculus with 36 samples.

Results

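The oligodendrocyte genes studied here are 9 genes that mark oligodendrocytes, namely Mog, Mobp, Cnp, Mag, Olig1, Olig2, Myrf, Opalin and Cldn11. They are 9 of the 55487 gene rows of the deposited raw table, picked because their Ensembl identifiers carry these symbols in GENCODE M21. Each symbol had 1 row. The rule used no measured value, but the members were chosen with earlier results of these data known. Oligodendrocytes are the myelin-forming glia of the central nervous system. In the spinal cord they wrap the axons of white matter tracts, whereas axons in the dorsal root ganglion (DRG) and in peripheral nerve are wrapped by Schwann cells, which share part of the myelin gene programme. The factors Olig1, Olig2 and Myrf set up the lineage and switch on the genes of the myelin sheath.

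The series is poly(A) RNA sequencing of DRG and of the dorsal spinal cord of mice, female by the title of the series, that were wild type or knockout for 1 gene by the genotype field. Mice were naive or had a spared nerve injury (SNI), an operation that cuts branches of the sciatic nerve and leaves 1 branch intact to model neuropathic pain. Each of the 2 tissues has 5 naive wild-type, 5 naive knockout, 4 SNI wild-type and 4 SNI knockout libraries, 36 in all. The strain, the age, the days after surgery, the side taken and the form of the knockout allele are not given in the sources used here. Nothing in the labels says that the libraries of a group came from separate animals, so the p-values measure the spread between these libraries, which may in part be technical.

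Library totals ran from 21342939 to 27268971 estimated counts. Levels are given as CPM, the count as a share of the library total after scaling within a tissue. A pair of naive DRG libraries, A2 and A4, are titled wild type but are knockout in the genotype field and in the column names; they were taken as knockout. The tissues differed in their defining markers. The summed level of 7 sensory neuron markers was 2597 to 4412 CPM in DRG and 42.5 to 137 CPM in cord. The sum of 8 astrocyte markers was 314 to 477 CPM in DRG and 6287 to 8253 CPM in cord. Schwann cell markers (11 genes) were present in both tissues, at 5019.7 to 7011 CPM in DRG and 429 to 1340.4 CPM in cord.

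The members lie on 7 chromosomes of GRCm38, and all are protein coding. Olig1 (ENSMUSG00000046160, chr16:91269772-91271933, plus strand) and Olig2 (ENSMUSG00000039830, chr16:91225457-91228677, plus strand) are neighbours on chromosome 16. Myrf (ENSMUSG00000036098, chr19:10208272-10240748, minus strand) and Opalin (ENSMUSG00000050121, chr19:41061710-41077113, minus strand) share chromosome 19. Mog (ENSMUSG00000076439) lies at chr17:37010743-37023398 on the minus strand, Mobp (ENSMUSG00000032517) at chr9:120149707-120181484 on the plus strand and Cnp (ENSMUSG00000006782) at chr11:100574904-100591729 on the plus strand. Mag (ENSMUSG00000036634) lies at chr7:30899176-30914873 on the minus strand and Cldn11 (ENSMUSG00000037625) at chr3:31149920-31164324 on the plus strand. Exons of 3 members share bases with another gene. Cnp shares 154 bases with Dnajc7 on the opposite strand, Olig1 shares 157 bases with the lincRNA Gm15966 on the opposite strand, and Mobp shares 79 bases with Gm38642 on the same strand. The library kit keeps strand, but whether the counting used it is not given in the sources used here, so reads in those shared bases cannot be assigned with certainty.

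Myrf encodes a membrane-bound transcription factor that is released to the nucleus and binds near myelin genes, so the promoters of the members were searched for its core letters. RefSeq promoter windows (GRCm38.p6) were matched for 7 of the 9 members, all but Olig1 and Myrf. In the 250 bases before the start site, CTGGCAC or CTGGTAC on either strand occurred in 3 members, Cnp, Mag and Mog. Of 32841 promoter windows of the same length, 5.926% held either form, 4.187% the first and 1.83% the second. These shares are per window, whereas the members are counted per gene, Mag with 3 windows. The windows of these 3 members are shown with that of Opalin, which has no match and, as given below, was at the DRG detection limit. Capitals mark the match, and each sequence reads 5′ to 3′ towards the gene.
Cnp chr11:100574689-100574938, plus strand: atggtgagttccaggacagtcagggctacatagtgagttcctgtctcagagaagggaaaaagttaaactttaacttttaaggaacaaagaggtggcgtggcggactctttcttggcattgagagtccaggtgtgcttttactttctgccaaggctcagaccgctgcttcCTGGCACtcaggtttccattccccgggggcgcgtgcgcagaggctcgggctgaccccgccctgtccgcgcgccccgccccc
Mag chr7:30914864-30915113, minus strand: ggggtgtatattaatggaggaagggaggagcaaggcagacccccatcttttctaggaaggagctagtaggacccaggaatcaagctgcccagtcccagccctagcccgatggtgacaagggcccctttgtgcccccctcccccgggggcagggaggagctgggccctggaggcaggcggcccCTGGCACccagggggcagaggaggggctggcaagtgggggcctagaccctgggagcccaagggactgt
Mog chr17:37023399-37023648, minus strand: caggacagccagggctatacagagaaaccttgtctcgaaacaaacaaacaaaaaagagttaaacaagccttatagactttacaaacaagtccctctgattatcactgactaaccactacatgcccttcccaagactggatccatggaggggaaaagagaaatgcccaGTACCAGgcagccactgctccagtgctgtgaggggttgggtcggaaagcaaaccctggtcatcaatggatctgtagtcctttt
Opalin chr19:41077114-41077363, minus strand: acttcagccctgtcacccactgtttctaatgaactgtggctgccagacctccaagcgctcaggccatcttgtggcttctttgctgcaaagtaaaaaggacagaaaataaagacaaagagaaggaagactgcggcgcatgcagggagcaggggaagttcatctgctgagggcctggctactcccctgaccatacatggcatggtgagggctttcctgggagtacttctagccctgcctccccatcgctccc
The match begins 81 bases before the RefSeq start in Cnp, 68 bases before it in Mag and 83 bases before it in Mog. Mag has 3 RefSeq starts, and the window shown belongs to the 1 that lies nearest to the end of its GENCODE model. The same match lies 9 bases before another of its starts, and the window of the remaining start has no match. A match is a run of letters and was not tested for binding.

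All 9 members were higher in cord than in DRG in naive wild-type mice. At an adjusted p under 0.05 (edgeR's quasi-likelihood test with Benjamini-Hochberg adjustment over all genes tested, 5 libraries against 5), 76.9% of the 18763 genes tested differed between the tissues and 37.6% were higher in cord. The median log2 difference was 8.65 over the members and -0.04 over all genes. For the comparison of tissues, CPM were scaled over all 36 libraries. The members were spread over a wide range, and they are given here from the factors to the sheath proteins.

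The lineage factors Olig1 and Olig2 were close to absent from DRG. Olig1 was at 163 ± 14.2 CPM in naive wild-type cord and at 0.183 ± 0.181 CPM in DRG (SD, n = 5 each), so DRG held 0.112% of the cord level. Olig2 was at 42.8 ± 2.78 CPM in cord and at 0.0350 ± 0.0612 CPM in DRG, or 0.0818%. Library B1 held 14 of the 25 Olig1 counts and 4 of the 5 Olig2 counts of naive wild-type DRG, and without it the shares were 0.0643% and 0.0199%. Over all 18 DRG libraries, Olig1 had 82 counts in total and Olig2 17, with 8 libraries at 0 for Olig2. Myrf, the third factor, was not at that limit: DRG held 1.59% of its cord level (2.23 ± 0.686 against 140.1 ± 12.9 CPM), a log2 difference of 5.96 ± 0.16 (SE, adjusted p = 3.57e-12).

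Among the sheath proteins, 3 followed the pattern of Olig1 and Olig2. Mog, a glycoprotein on the outermost surface of central myelin, was at 258 ± 7.79 CPM in cord and at 0.234 ± 0.209 CPM in DRG, which is 0.0909% of the cord level (0.0554% without B1, which held 17 of 32 counts). Opalin, a membrane glycoprotein of oligodendrocytes, was at 49.7 ± 2.58 CPM in cord and had 1 count, in B1, in the 5 naive wild-type DRG libraries together. The ratio of cord to DRG was 7032, with a 95% counting interval of 1262 to 277742, which covers counting error only. Mobp, a small basic protein of compact central myelin, had the highest cord level per length of the 9 and a DRG level of 6.68 ± 4.65 CPM, 0.242% of the cord level of 2762 ± 204 CPM (0.173% without B1).

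Cnp, Cldn11 and Mag were present in DRG at a few percent or more of the cord level. Cnp, a phosphodiesterase of non-compact myelin that Schwann cells also make, was at 155 ± 19.99 CPM in DRG and 1017 ± 24.8 CPM in cord, a share of 15.3% and a log2 difference of 2.69 ± 0.08 (adjusted p = 8.67e-12). Cldn11, the claudin of the tight junctions between the layers of central myelin, was at 26.2 ± 10.5 CPM in DRG, 6.12% of the cord level (log2 difference 4.00 ± 0.24, adjusted p = 2.90e-08). Mag, an adhesion molecule of the inner myelin surface that Schwann cells also make, was at 23.2 ± 4.01 CPM in DRG, 3.60% of the cord level (log2 difference 4.77 ± 0.11, adjusted p = 6.05e-13). In these bulk samples fewer cells of a type and less RNA per cell cannot be told apart. All 11 Schwann cell markers were lower in cord, beside 7362 of the 18763 genes tested, with a median log2 difference of -2.72. The part of Schwann cells in the DRG level of Cnp, Cldn11 and Mag was not tested.

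**Figure D1:**
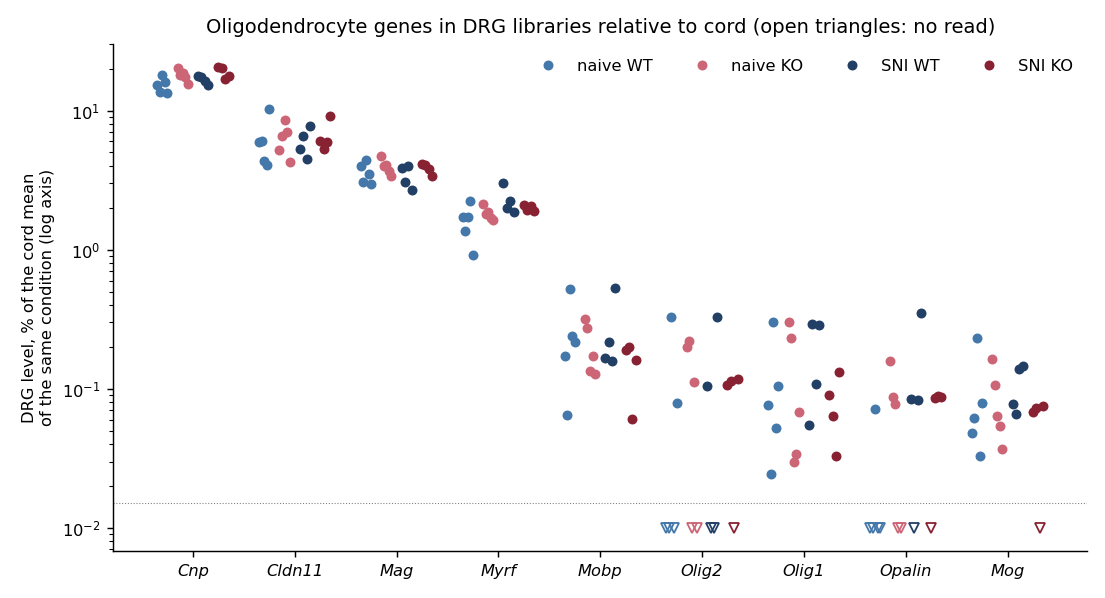
Level of each member in each DRG library as a percentage of the mean cord level of the same genotype and injury, on a log axis, with colours for the 4 conditions and open triangles for libraries with no read. Cnp, Cldn11 and Mag lie highest, Myrf near 2%, and Mobp, Olig1, Olig2, Opalin and Mog below 1% in every library.

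Per kilobase of merged exons, the order in naive wild-type cord was Mobp at 403 ± 29.8 CPM, Cnp at 279 ± 6.82, Cldn11 at 229 ± 13.7, Mag at 159 ± 4.46, Mog at 151 ± 4.57, Olig1 at 75.3 ± 6.57, Olig2 at 16.9 ± 1.1, Opalin at 16.9 ± 0.877 and Myrf at 16.4 ± 1.51 (SD, n = 5). The ranges of Mag and Mog overlapped, as did those of Olig2, Opalin and Myrf; the other neighbours in this order did not overlap. The order depends on the length used: with the longest transcript of each gene, Mag (265) stood above Cldn11 (229) and Olig2 (16.9) stood last. In DRG the order per kilobase of merged exons was Cnp (42.6), Cldn11 (14.02), Mag (5.70), Mobp (0.976), Myrf (0.260), Mog (0.138), Olig1 (0.0845), Olig2 (0.0139) and Opalin (0.00240). Mobp thus led the order in cord and stood behind Cnp, Cldn11 and Mag in DRG.

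After SNI none of the 9 members was called in cord, in either genotype. All 9 passed the filter on low counts in cord, and 0 were called in wild type and 0 in knockout, where 2.88% and 4.42% of the 18843 genes tested were called. At an unadjusted p under 0.05 there were 2 members in wild type, Olig1 and Olig2, and 0 in knockout, and DESeq2 called 0 in both. Olig1 was at 136 to 169 CPM in naive and at 129 to 152 CPM in SNI wild-type cord, a log2 difference of -0.16 ± 0.06 (edgeR adjusted p = 0.253). Leaving out the naive library B7, the lowest of its group, gave -0.20 with an adjusted p of 0.0379. Olig2 differed by -0.15 ± 0.07 (adjusted p = 0.377), with 38.1 to 43.9 CPM in naive and 34.3 to 42.0 CPM in SNI libraries. The other members had log2 differences between -0.11 and 0.03 in wild type, and in knockout all 9 lay between -0.08 and 0.05. In the same libraries 9 of 10 microglia and macrophage markers rose in each genotype, and their summed level went from 294 to 338 CPM in naive wild type to 631 to 665 CPM after SNI.

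**Figure D2:**
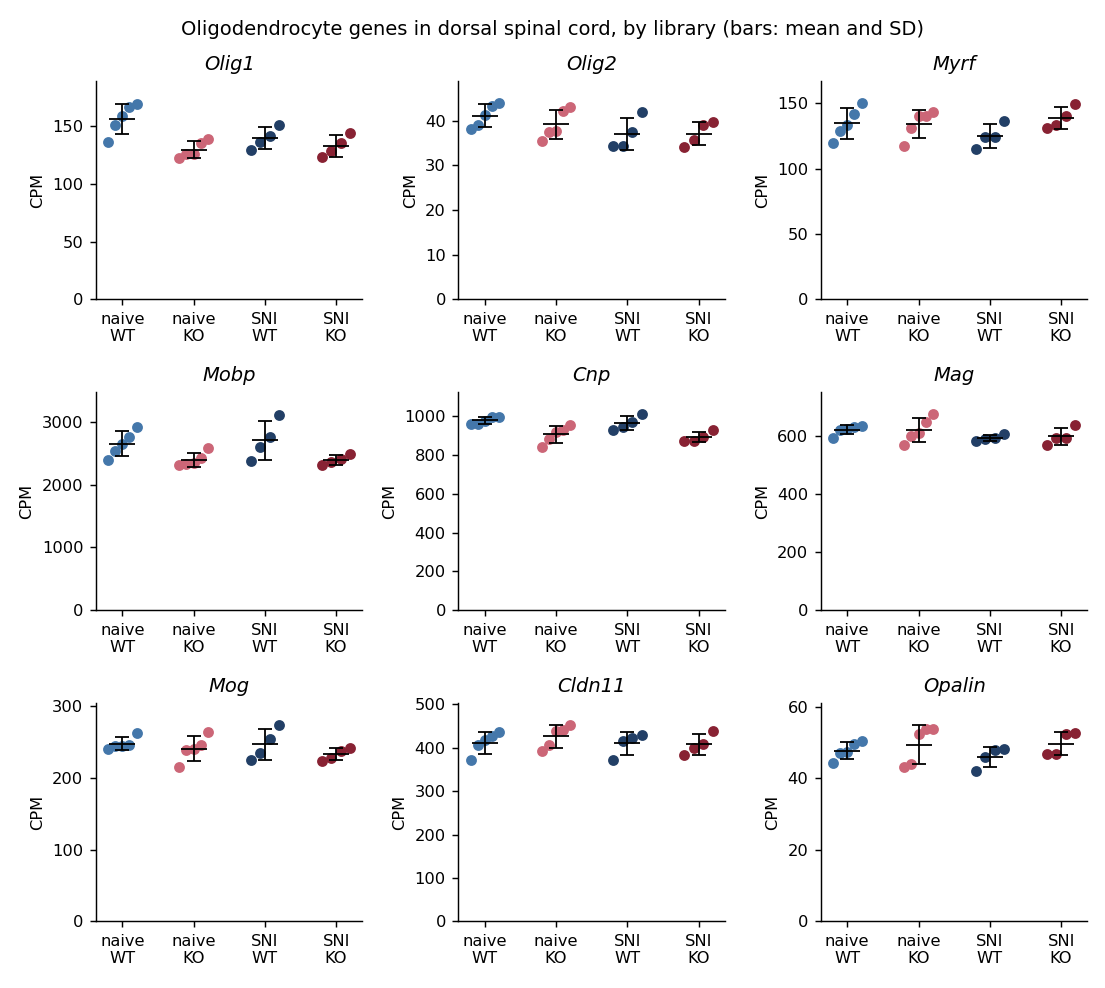
CPM of the 9 members in each dorsal cord library, by genotype and injury, with axes from 0; points are libraries and bars are the mean and SD of 5 naive or 4 SNI libraries. Cnp is lower in every naive knockout library than in any naive wild-type one, Olig1 is lower on average with 1 library of each group overlapping, and the SNI groups overlap their naive groups for all 9.

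In naive cord, 2 of the 9 members were lower in knockout than in wild type, Olig1 and Cnp, both by less than 1 log2 unit. The share of all 18843 genes called in this comparison was 19.7%, with 9.94% lower and 9.79% higher in knockout, so 2 of 9 is near the background. The median log2 difference of the members was -0.04 and that of all genes -0.01.

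Olig1 in the naive wild-type cord libraries A5, A7, B5, B7 and C5 was at 167, 169, 159, 136 and 151 CPM. In the naive knockout libraries A6, A8, B6, B8 and C6 it was at 122, 126, 139, 126 and 135 CPM. The groups overlapped by 1 library on each side, B7 being the low wild-type library and B6 the high knockout one. The log2 difference was -0.27 ± 0.06 (edgeR's adjusted p = 0.00279). It was called in all 25 alternatives run, with log2 values of -0.32 to -0.24 and adjusted p from 0.000146 to 0.0112. Gm15966, which overlaps Olig1, had 1 to 8 counts per naive cord library. Olig2, its neighbour and partner factor, differed by -0.07 ± 0.06 (adjusted p = 0.466); the difference between the pair was not tested.

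Cnp was at 975, 996, 960.3, 995 and 959.6 CPM in the naive wild-type libraries A5, A7, B5, B7 and C5. It was at 884, 916, 929.8, 839 and 955 CPM in the naive knockout libraries A6, A8, B6, B8 and C6. The groups did not overlap, and the log2 difference was -0.11 ± 0.03 (adjusted p = 0.0268). The call is close to the threshold: the adjusted p was 0.0523, 0.0796, 0.0581, 0.0546 and 0.107 without A5, A6, A7, B7 and B8 in turn, and 0.0501 without the filter on low counts. Dnajc7, which shares exon bases with Cnp on the other strand, was higher in naive knockout cord (log2 difference 0.13 ± 0.03, adjusted p = 0.00249).

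Mobp was at 2399, 2650.4, 2925, 2759 and 2541 CPM in naive wild-type cord (A5, A7, B5, B7 and C5) and at 2349, 2576, 2321, 2315 and 2427 CPM in naive knockout cord (A6, A8, B6, B8 and C6). The groups overlapped, and the log2 difference of -0.15 ± 0.06 was not called (adjusted p = 0.0839). It was called in 5 of 25 alternatives, with adjusted p between 0.0314 and 0.210 over them. Gm38642, which overlaps Mobp, had at most 31 counts in a naive cord library. The remaining 6 members differed by -0.07 to 0.05 on the log2 scale and were not called in any of the 25 alternatives.

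After SNI, 0 of the 9 members differed by genotype in cord, where 6.26% of genes were called (3.31% lower and 2.95% higher in knockout). At an unadjusted p under 0.05 there were 3 members, Cnp, Mobp and Myrf, and DESeq2 called 1. Cnp was at 1012, 969, 942 and 929.0 CPM in wild type (E5, E7, F5 and F7) and at 873, 873, 926 and 892 CPM in knockout (E6, E8, F6 and F8). These groups did not overlap, and the log2 difference of -0.11 ± 0.04 equalled the naive one to 2 decimals (edgeR's adjusted p = 0.0915, DESeq2's 0.0365). Mobp differed by -0.18 ± 0.07 (adjusted p = 0.118, and 0.0256 without the wild-type library F5). Myrf differed by 0.15 ± 0.07 (adjusted p = 0.251), with 115 to 137 CPM in wild type and 131 to 149.7 CPM in knockout. Olig1 was at 142, 152, 129 and 136 CPM in wild type and 123, 136, 128 and 145 CPM in knockout, which overlapped (log2 difference -0.07 ± 0.06, adjusted p = 0.589).

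Whether the genotype difference itself changed with injury was tested as an interaction. In cord it was called for 0.0% of genes and for 0 of the 9 members by edgeR, with 1150 genes and 1 member, Olig1, at an unadjusted p under 0.05; DESeq2 called 1 gene and 0 members. The interaction of Olig1 was 0.20 ± 0.09 on the log2 scale (adjusted p = 0.796). The naive call for Olig1 and the absence of a call after SNI are thus not shown to differ.

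The wider oligodendrocyte genes of cord were counted in the same genotype comparisons, in lists chosen with earlier results of these data known. Of 39 further mature oligodendrocyte and myelin genes, all tested, 15 were lower and 1 was higher in naive knockout cord, with a median log2 difference of -0.11 against -0.01 over all genes. That is 38.5% lower, beside 9.94% of all genes. The 4 lower genes with the lowest adjusted p were Lpar1, a receptor for lysophosphatidic acid (-0.36 ± 0.04, adjusted p = 1.56e-06), Plekhb1 (-0.28 ± 0.04, 4.57e-05), S1pr5, a sphingosine phosphate receptor (-0.38 ± 0.06, 9.33e-05), and Gjb1, the connexin of myelin channels (-0.32 ± 0.05, 0.000118). The higher gene was Tspan2, a tetraspanin (0.20 ± 0.05, adjusted p = 0.00495). The summed level of the 39 genes was 28811 to 30964 CPM in naive wild type and 25515 to 29555 CPM in naive knockout. Leaving out 1 library at a time gave 11 to 17 genes lower.

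Of 15 genes of precursors and newly formed oligodendrocytes, 4 rose and 0 fell in naive knockout cord, 26.7% higher beside 9.79% of all genes. The 4 were Itpr2, an intracellular calcium channel (0.20 ± 0.04, adjusted p = 0.00260), Lhfpl3 (0.19 ± 0.04, 0.00400), Vcan, a matrix proteoglycan (0.20 ± 0.06, 0.0232), and Ptprz1, a receptor phosphatase (0.15 ± 0.05, 0.0253). Their summed level was 896 to 948 CPM in wild type and 947 to 999 CPM in knockout. Leaving out 1 library at a time gave 2 to 6 genes higher, with 2 without A7. Of 13 further transcription factors of the lineage, 2 fell and 2 rose, 15.4% each way, which is near the 9.94% and 9.79% of all genes. Nkx2-2 (-0.33 ± 0.09, adjusted p = 0.0140) and Sox10 (-0.17 ± 0.06, 0.0449) fell, and Id4 (0.15 ± 0.05, 0.0288) and Zfp488 (0.21 ± 0.07, 0.0424) rose. With single libraries left out, 1 to 2 fell and 0 to 2 rose, with 0 higher without A7, A8 or B8, and 1 lower without any of A5, A6, A7, A8, B5, B7, B8, C6, E8 and F8.

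After SNI, 6 of the 39 mature genes were lower in knockout cord and 0 were higher, 15.4% lower beside 3.31% of all genes. Of the 6, 5 were among the 15 lower in naive cord. The same overlap over all genes was not counted, so 5 of 6 is not read as particular to these genes. The 4 with the lowest adjusted p were Lpar1 (-0.24 ± 0.05, adjusted p = 0.00165), Klk6, a protease (-0.38 ± 0.08, 0.00385), Gjb1 (-0.23 ± 0.06, 0.0147) and Plekhb1 (-0.18 ± 0.05, 0.0174). The count was 2 without E5, 2 without E8 and 3 without F8. Of the 15 precursor genes, Itpr2 (0.17 ± 0.05, 0.0303) and Ptprz1 (0.18 ± 0.05, 0.0323) rose and Enpp6 (-0.22 ± 0.06, 0.0295), a phosphodiesterase of newly formed oligodendrocytes, fell, 2 and 1 of 15 beside 2.95% and 3.31% of all genes. None of the 13 transcription factors was called by edgeR or by DESeq2, and 1 had an unadjusted p under 0.05. Between SNI and naive wild-type cord, edgeR and DESeq2 each called 0 genes in the 3 lists, where edgeR called only 2.88% of all genes. At an unadjusted p under 0.05 there were 6 mature genes, 1 factor and 2 precursor genes. In knockout cord 1 gene was called, beside 4.42% of all genes. It was Ugt8a, which makes galactosylceramide (-0.25 ± 0.07, adjusted p = 0.0442). In 12 of the 23 alternatives, the fit without the filter among them, 0 mature genes were called lower in knockout cord. In wild type 1 mature gene was called lower without the filter and 1 with only the 2 groups compared.

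**Figure D3:**
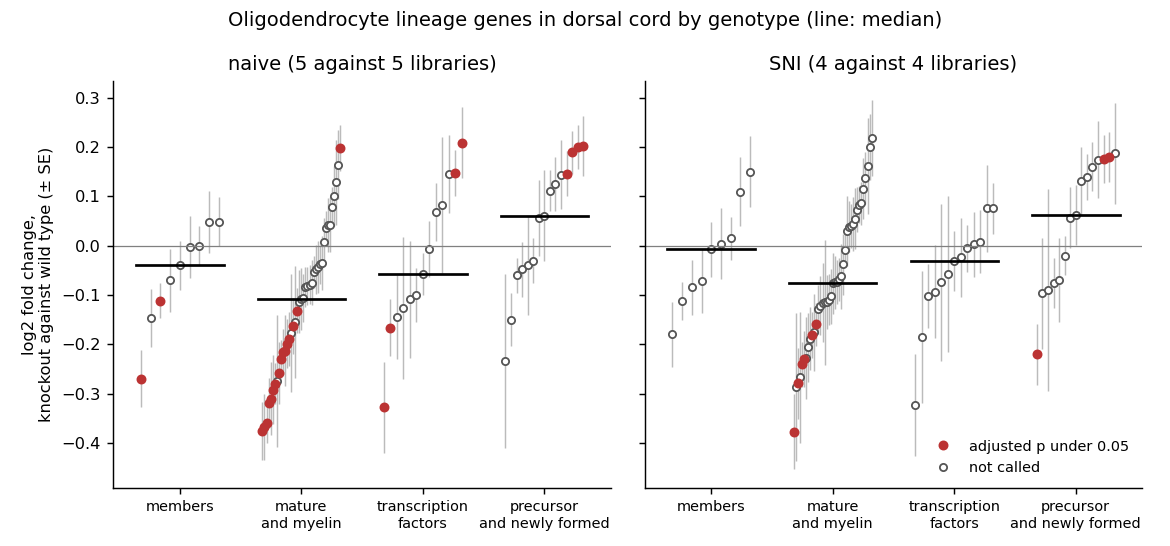
Log2 fold change of knockout against wild type with its SE for the 9 members and the 39, 13 and 15 genes of the further lists in cord, naive on the left and SNI on the right; filled points have an adjusted p under 0.05 and lines are medians. In naive cord 15 mature genes are filled below 0 and 4 precursor genes are filled above 0, while 2 members, Olig1 and Cnp, are filled.

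Markers of other cells were read in the same cord libraries. The summed Schwann cell level was 722 to 1340.4 CPM in naive wild type and 457 to 1047 CPM in naive knockout, with 2 of 11 genes called lower, beside 9.94% of all genes, and a median log2 difference of -0.49. After SNI it was 644 to 1157 CPM against 429 to 658 CPM, with 1 of 11 called lower, beside 3.31%; the groups overlapped in naive and in SNI cord. Blood markers were called lower for 4 of 5 in naive knockout cord (9.94% of all genes) and for 0 of 5 after SNI (3.31%). Their sums were 170.3 to 482 CPM in wild type and 137 to 172 CPM in knockout in naive cord, where 1 library of each group overlapped (B7 and A8), and 180.4 to 248.5 against 142 to 252 CPM after SNI. Neuron markers (10 genes) summed to 7394 to 9286 CPM in naive wild type and 7003 to 7643 CPM in naive knockout. Of these, 2 were called lower and 1 higher. Astrocyte markers were called higher for 2 and lower for 1 of 8 in naive knockout cord. Microglia and macrophage markers were called higher for 1 and lower for 3 of 10. Beside these counts, 9.94% of all genes were lower and 9.79% higher. The part of these cells in the genotype differences above was not tested. The mature genes were also present in DRG: their sum was 7194 to 9081 CPM in naive wild-type DRG. In naive wild type, 34 of the 39 were higher and 5 lower in cord than in DRG, beside 7062 and 7362 of all 18763 genes.

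**Figure D4:**
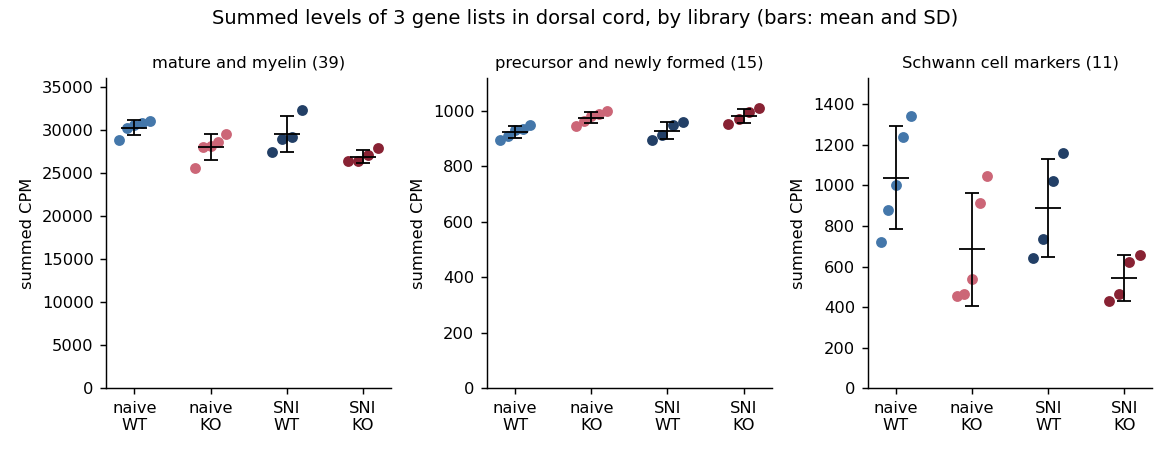
Summed CPM of the 39 mature genes, 15 precursor genes and 11 Schwann cell markers in each cord library, with axes from 0; points are libraries and bars are the mean and SD. The mature and Schwann sums are lower on average in knockout than in wild-type libraries and the precursor sums are higher, with overlap between the genotypes in each panel.

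In DRG none of the members was called in any comparison. Of the 9, 5 passed the filter on low counts there (Cnp, Mag, Cldn11, Myrf and Mobp), and Mog, Olig1, Olig2 and Opalin did not. The count was 0 of 5 for SNI in wild type (24.9% of 19496 genes called), for SNI in knockout (28.5%), for knockout in naive (28.2%) and after SNI (5.1%), and for the interaction (0.0256%). At an unadjusted p under 0.05 there were 0 members in each of the 5 comparisons, and DESeq2 called 0. Myrf was at 2.50, 1.998, 2.49, 3.27 and 1.35 CPM in naive wild-type DRG (A1, A3, B1, B3 and C1) and at 4.05, 2.65, 3.01 and 2.49 CPM after SNI (E1, E3, F1 and F3). The groups overlapped (log2 difference 0.40 ± 0.19, adjusted p = 0.144), and without B3 the adjusted p was 0.0307. Cnp differed by 0.07 to 0.09 in the 4 pairwise comparisons, with SEs of 0.09 to 0.10. Mobp had the widest spread: it differed by -0.98 ± 0.54 in knockout against wild type after SNI (adjusted p = 0.300), where library F3 alone reached 15.4 CPM against 4.59 to 6.25 CPM in the other wild-type libraries.

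Among the wider lists in DRG, 6 of 35 tested mature genes rose and 8 fell after SNI in wild type, and 7 rose and 7 fell in knockout. Omg, a surface glycoprotein of oligodendrocytes and neurons, fell by 0.81 ± 0.06 on the log2 scale (adjusted p = 2.59e-08), and Tmem88b rose by 1.29 ± 0.11 (adjusted p = 5.02e-08) in wild type. In naive DRG, 5 rose and 7 fell in knockout; Trf, transferrin, fell by 0.81 ± 0.16 (adjusted p = 0.00240). These shares, 14 of 35 after SNI in each genotype and 12 of 35 in naive knockout, stand beside 24.9%, 28.5% and 28.2% of all genes. After SNI by genotype, 0 rose and 2 fell in knockout, beside 5.1% of all genes called. Of the 10 further factors tested in DRG, 0 rose and 4 fell after SNI in wild type, 2 rose and 3 fell in knockout, and 0 rose and 1 fell in naive knockout. Of the 13 precursor genes tested, 0 rose and 2 fell after SNI in wild type, 0 rose and 3 fell in knockout, and 2 rose and 3 fell in naive knockout. Beside these counts, 2465 of all 19496 genes rose and 2399 fell after SNI in wild type. In knockout 2949 rose and 2600 fell after SNI, and in naive knockout 2494 rose and 3012 fell. The naive genotype counts rest on a few libraries. Without A2 and A4, the pair whose titles and genotype fields disagree, 13.3% of 19727 genes were called, with 2 mature genes higher and 5 lower, 0 factors higher and 1 lower, and 2 precursor genes higher and 0 lower. The share of all genes was 15.6% without C1, 15.9% without A3 and 16.7% without A2, and without C1 the mature genes were 1 higher and 5 lower. Markers of other cells also differed between the naive DRG groups. Neuron markers were called higher in knockout for 6 of 10 genes, with sums of 9933 to 13815 CPM in wild type and 14330.4 to 17610.0 CPM in knockout. Astrocyte markers were called higher for 5 of 8 (337 to 405 against 431 to 477 CPM). Blood markers were called lower for 5 of 5 (737 to 3540.0 against 191 to 609.6 CPM), endothelial markers for 4 of 5 (71.7 to 92.0 against 61.0 to 68.6 CPM) and microglia and macrophage markers for 5 of 10 (222 to 359 against 228 to 277 CPM). Of these 5 sums, the last overlapped between the groups and the others did not. Schwann cell markers were called higher for 2 and lower for 1 of 11. Over all 19496 genes tested, 2494 were higher and 3012 lower in naive knockout DRG. In addition, 9 of 10 microglia and macrophage markers rose after SNI in wild type, where 2465 of all genes rose. The part of these cells was not tested.

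The members also varied between libraries of the same group, and did so differently in the 2 tissues. Pearson's r was taken between pairs of members over the 18 libraries of a tissue after removal of the group means; the points share their libraries and depth, and r is given as a description. In cord the median over the 36 pairs was 0.32. The highest pairs were Cnp and Mag (0.81), Olig1 and Olig2 (0.79), and Mag with Opalin and with Cldn11 (0.68 each), while Mog and Mobp reached 0.64. In DRG, Mog, Mobp, Olig1, Olig2 and Opalin, the 5 members below 1% of the cord level, had r between 0.46 and 0.85 for their 10 pairs (median 0.74). In cord the same 10 pairs lay between -0.32 and 0.79 (median 0.14). The DRG values of these pairs rest on few reads. Over the 18 DRG libraries Opalin had 14 counts, Olig2 17, Olig1 82 and Mog 96. Opalin and Olig2 were each at 0 in 8 of them. Between these 5 members and Cnp, Mag, Cldn11 and Myrf, r in DRG was -0.12 to 0.53 (median 0.06). Cnp with Mog (0.53) and with Mobp (0.52) were the highest of these pairs. Cnp and Mag (0.79) and Mag and Myrf (0.67) went together in DRG. Cldn11 ran against Myrf (-0.62), Mag (-0.52) and Cnp (-0.35) there.

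A few DRG libraries stood apart. B1 of naive wild type had 0.622 CPM of Mog, 14.8 of Mobp, 0.512 of Olig1 and 0.146 of Olig2, against at most 0.214, 6.84, 0.178 and 0.0356 in the other 4 libraries of that group. F3 of SNI wild type had 15.4 CPM of Mobp, 0.387 of Mog and 0.172 of Opalin. F2 of SNI knockout was low, with 1.54 CPM of Mobp and no read of Mog or Olig2. Without B1 and F3, the r of the 10 pairs of Mog, Mobp, Olig1, Olig2 and Opalin over the other 16 DRG libraries was 0.17 to 0.68, with a median of 0.54. Astrocyte markers summed to 401 CPM in B1, within the 337 to 405 CPM of its group, and to 314 CPM in F3, the lowest of its group. Why B1 and F3 were high was not tested, and these sums do not decide it. C1 of naive wild type had 45.8 CPM of Cldn11, the highest DRG value, and 1.35 CPM of Myrf, the lowest, and its blood markers summed to 3540.0 CPM.

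**Figure D5:**
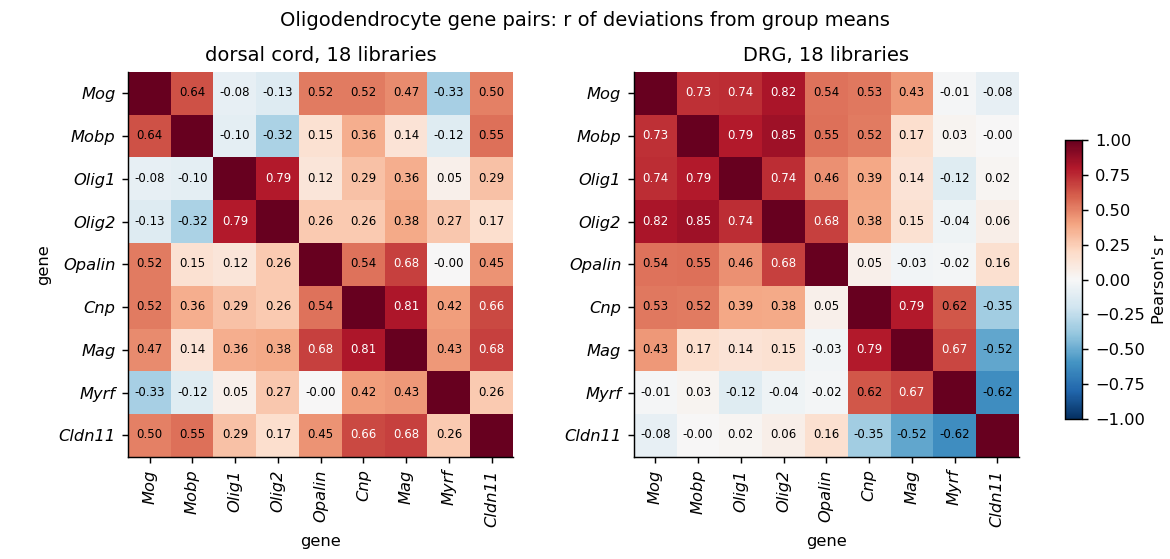
Pearson's r between each pair of members over the 18 libraries of dorsal cord (left) and DRG (right), after removal of group means; red is positive and blue negative. In DRG the block of Mog, Mobp, Olig1, Olig2 and Opalin is red throughout, with values of 0.46 to 0.85, and in cord it is not. The DRG levels of Mog, Olig1, Olig2 and Opalin rest on few reads.

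The genes whose library-to-library pattern was most like the mean profile of the 9 members in cord, of 14388 genes expressed there, were Trmt61a, Clba1, Efnb3, Sys1, Rspo3, Trim35, Cmtm5 and Wnt7b, with r from 0.80 to 0.86 over 18 libraries. The most opposed were Siah1b, mt-Rnr2, Kif24, Tcf20, Desi2, Vps13d, Cnksr2 and Glg1, with r from -0.79 to -0.75. The median r was 0.47 for the 39 mature genes, 0.37 for 10 neuron markers, 0.44 for 3 motor neuron markers, 0.44 for 2 sensory neuron markers, 0.05 for the 15 precursor genes and -0.04 for the Schwann cell markers. In DRG, with the 5 members above 1 CPM and 14813 genes, the highest were Emp2, Map4k2, Epb41l4b, Gjc3, Slc20a2, Gprc5b, Cpne9 and Arhgef10 (0.81 to 0.86), and the lowest were Gm48365, 9330159M07Rik, Pih1d2, Rpl7a-ps11, Cks2, Timp1, Csf2rb2 and Vwf (-0.87 to -0.78). There the median r was 0.33 for the mature genes, 0.36 for the neuron markers, 0.38 for the sensory neuron markers, 0.53 for the Schwann cell markers, -0.52 for the endothelial markers and -0.55 for the blood markers.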

How the data were processed

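Poly(A) RNA of 36 libraries was sequenced from stranded libraries, per the labels' protocols. FastQC 0.11.5, HISAT2, RSEM and GRCm38 are named in the submitters' processing notes. The deposited raw table holds expected counts per gene that the authors estimated, and they were rounded to whole numbers here. In column E1 of that table, the authors left 9150 values with a decimal comma, which were repaired, and 1 lost value, which was restored from the deposited table of normalised counts (a signal scaled by the authors, otherwise used in 1 alternative only).

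Each tissue was fitted with edgeR 4.0.16 in R 4.3.3 (TMM scaling, filterByExpr, robust quasi-likelihood, 18 libraries in 4 groups, which share 1 estimate of the spread). Naive wild-type cord and DRG were fitted alone. A gene was called when its p, adjusted by Benjamini and Hochberg's method over every gene in the fit, was under 0.05. Alternatives were DESeq2 1.42.0 and its size factors, limma 3.58.1 on the normalised table with a pseudocount of 1, no filter, only the groups compared, a term for the letter of the library name, a replicate block, without A2 and A4, and leaving out each library; the block by genotype, the counts of the further lists in both tissues and the DRG shares without B1 were added after seeing the data. The functions were tested on simulated counts. Numbers in the column names pair cord with DRG in naive wild type, where same-numbered libraries correlated at 0.146 to 0.354, by their deviations from group means. Between genotypes same-numbered libraries correlated at -0.219 to 0.447. In SNI cord 3 of 4 wild-type libraries correlated best with the knockout library of their own number, and in naive DRG 1 of 5. Whether the number pairs the genotypes is thus not settled. All 9 members are named, as are up to 4 called genes per list, comparison and direction, and the 8 genes most and least like the mean of the members with a mean of at least 1 CPM, among genes averaging 1 or more in log2 CPM. Genes overlapping a member were named after their values were seen. The targeted gene is not reported here. The members and lists were chosen with earlier results of these data known. Depth was 21342939 to 27268971 counts per library. At the 95% level, a count of 0 in a library allows an expected count of up to 3, whatever the depth.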

Additional observations from a re-analysis of the deposited data

Results flagged for a closer look

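A library stood apart from its group (Dixon's test at the 95% level) in 8 of the 72 sets formed by 9 members and 8 groups. For normally spread values chance alone marks about 1 set in 20. That rate does not hold for sets of tied zeros and single reads, so the count of 8 cannot be set against it. Of the 8 sets, 7 were in DRG and rest on few reads except for Mobp. In naive wild-type DRG, library B1 was high for Mog (0.622 CPM), Olig2 (0.146 CPM) and Opalin (0.0366 CPM, from 1 read). In SNI wild-type DRG, library F3 was high for Mobp (15.4 CPM). In SNI knockout DRG, library F2 was low for Mog and Olig2 (0.0 CPM each) and library E2 was low for Opalin (0.0 CPM). In naive wild-type cord, library B5 was high for Mog (263 CPM against 240.2 to 246 CPM in the other 4).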

How the results depend on the processing

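No value of a called member changed sign in any alternative, and the 9 of 9 members higher in cord held in all of them, including the replicate block that pairs the tissues by number (14387 genes called). Members called in naive cord by genotype numbered 1 without the filter on low counts and 1 to 3 with single libraries left out. The count after SNI was 1 with DESeq2 and 0 to 1 with libraries left out, and for SNI in wild type it was 0 to 1 in cord and 0 to 1 in DRG. Whether same-numbered libraries of the 2 genotypes are pairs is not settled. With the replicate block, 2 members were called in naive cord and 3523 genes against 3718. Genes called for SNI in wild-type DRG fell to 3216 with only the groups compared. For knockout in DRG they were 2626 in naive without A2 and A4 (3032 to 6638 with single libraries left out, the lowest without C1) and 649 after SNI with only the groups compared (615 to 1703 with single libraries left out, the lowest without E3 and the highest without F1). The interaction in DRG gave 25 genes with DESeq2, 3 with the letter term, 0 with the replicate block, 2 without A2 and A4 and 1 to 7 with libraries left out; in cord DESeq2 gave 1. The split of genotype calls in naive cord was 1388 higher and 2630 lower with limma on the authors' normalised table against 1845 and 1873 (1864 and 1867 with DESeq2's size factors). In naive DRG it was 2889 and 2802 with DESeq2's size factors against 2494 and 3012.

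For the lists in naive cord by genotype, mature genes called higher were 2 with the letter term and 2 with the replicate block (1 to 2 with libraries left out). Factors called lower were 1 with the letter term and 1 with the block (1 to 2), and factors called higher were 1 with DESeq2 and 0 with limma (0 to 2). Precursor genes called lower were 1 without the filter and 1 with limma (0 to 1), and those called higher ranged from 2 to 6. After SNI, mature genes called lower ranged from 2 to 8 over the 25 alternatives. Those called higher were 1 with only the groups compared, 1 with the letter term and 1 with the replicate block (0 to 1). Factors called lower were 0 to 1. Precursor genes called higher were 1 without the filter, 1 with only the groups compared and 1 with the letter term (0 to 3, with 0 without E6, E7 or F5), and those called lower were 0 to 1, with 0 without E5, E8, F6, F7 or F8. For SNI against naive in cord, mature genes called lower were 1 without the filter and 1 with only the groups compared in wild type (0 to 1 with libraries left out, 1 without E5) and 0 without the filter in knockout (0 to 2); those called higher in knockout were 0 to 2, with 2 without C6. For SNI in wild-type DRG, mature genes called lower were 4 with only the groups compared (5 to 8, the lowest without E3 or F3), and precursor genes called higher were 0 to 1, with 1 without B1, C1, E1 or F3. For SNI in knockout DRG, factors called higher were 1 without the filter and 1 without A2 and A4 (1 to 2), and precursor genes called higher were 4 with only the groups compared. For knockout in naive DRG, mature genes called higher were 3 without the filter and 2 without A2 and A4 (1 to 6), mature genes called lower 3 to 7 with the lowest without B4, factors called lower 1 to 2, and precursor genes called lower 0 without A2 and A4 (0 to 3, with the lowest without C1). For knockout in SNI DRG, mature genes called lower were 1 without the filter and 1 with only the groups compared (1 to 4, the highest without E1), those called higher were 1 with DESeq2, 1 with limma and 1 with the letter term (0 to 1), and precursor genes called lower and higher were 0 to 1 each. Apart from what fewer libraries or genes imply, the cause was not tested. Mog, Olig1, Olig2 and Opalin did not pass the filter in DRG; without it all 9 members were tested there, and 0 were called in each of the 5 comparisons.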
